A study of Mus musculus with 2 samples.

Results

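The cells described here are stage 3 iNKT1 cells of the mouse thymus, taken from mice that lack Kidins220 in T cells (T-KO) and from Ctrl mice. T-KO mice were Kidins220 fl/fl with LckCre, and Ctrl mice carried LckCre with Kidins220 +/fl or +/+, so both genotypes held the Cre transgene. This Cre is driven by the proximal Lck promoter and acts in T lineage cells from an early double-negative stage on. All mice were on the C57BL/6 background, and the methods give an age range for the study as a whole but no ages for the mice of this experiment. Thymi of 4 mice were combined into 1 pool, with 2 pools per genotype, named Ctrl 1, Ctrl 2, T-KO 1 and T-KO 2. From each pool, stage 3 cells (TCRβ+, CD1d tetramer+, NK1.1+, CD24-, CD44+) and stage 0 cells (TCRβ+, CD1d tetramer+, CD24+, NK1.1-) were sorted, and the methods call the tetramer stain of this sort poor. The resulting 8 populations were marked with hashtag antibodies and sequenced together as 1 droplet library read from the 5′ end of transcripts.

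The cells were selected on measured values. A cell had at least 1000 genes, at most 5% mitochondrial UMIs (unique molecular identifiers, each standing for 1 captured transcript), at least 10 hashtag UMIs with at least 80% of them on 1 row, and at least 2 UMIs of Klrb1c, Nkg7 and Il2rb together. Of 16179 barcodes, 12147 passed the gene and mitochondrial filters, 10007 were assigned to a hashtag row and 5758 lay on the 4 rows taken as stage 3. The gate kept 5621 of these, namely 1729 and 2113 Ctrl cells and 552 and 1227 T-KO cells. On the stage 3 rows, 50 cells had 0 gate UMIs, 87 had 1, 151 had 2 and 206 had 3. Cells just outside the gate, with 1 gate UMI, had a median of 1703 UMIs and a Tbx21 level of 166 CPM (UMIs per 1000000 UMIs of the pool), against 1964 UMIs and 192 CPM in the cells just inside it.

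The genotype of each cell rests on an assumption. The hashtag UMIs lay on rows numbered 11 to 18 (99.9%), whereas the label of the hashtag library names hashtags from 1 upward and breaks off at hashtag 7. Nothing pairs the rows with the hashtags, so rows 11 to 18 were taken in numeric order as hashtags 1 to 8, and the last pair of hashtags by elimination, which makes rows 12 and 14 stage 3 Ctrl and rows 16 and 18 stage 3 T-KO. Under this order, Tbx21, a marker the gate did not use, had 168 to 216 CPM over the assigned cells of the stage 3 rows and 2.78 to 5.14 CPM over those of the stage 0 rows. Cd24a, a surface marker of stage 0, had 23.3 to 34.2 CPM on the stage 3 rows and 313 to 365 CPM on the stage 0 rows. The row order therefore matched the sorted stages, but these markers say nothing about genotype. Directions below hold for the rows labelled T-KO and Ctrl in this way.

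Invariant natural killer T (iNKT) cells carry a semi-invariant TCR that recognises lipids presented by CD1d. In the thymus they pass from CD24+ stage 0 cells to NK1.1+ stage 3 cells, most of which are iNKT1 cells that depend on the transcription factor T-bet (Tbx21) and on IL-15, received through the receptor chain CD122 (Il2rb), and that make interferon-γ and cytotoxic molecules. Kidins220 is a large membrane protein that binds the TCR and scaffolds signalling to the ERK pathway. The comparison asks which transcripts differ in stage 3 iNKT1 cells when Kidins220 is deleted.

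Summed over cells, the pools held 5987280 and 7185445 UMIs in Ctrl and 2205577 and 4735383 in T-KO. T-KO cells were deeper, with medians of 3808.5 and 3696 UMIs per cell against 3320 and 3277. All 4 populations come from the same droplet library, and doublets within a population were not removed. Of 10702 genes tested with edgeR's quasi-likelihood test on the summed counts, 312 were called at a Benjamini-Hochberg adjusted p under 0.05 (2.92% of the genes tested). In T-KO, 210 were higher (1.96%) and 102 lower (0.953%), with a median absolute log2 fold change of 0.53. These shares are the background for the counts of called genes in the gene groups below. Among the 312, 47 were at least 2-fold higher and 13 at least 2-fold lower. The pools of the genotypes did not overlap in 4854 genes (45.4% of those tested), among them all 312 called genes. DESeq2 called 86 genes, 82 of them among the 312. With each cell thinned to 1500 UMIs, 136 were called, 68 in each direction. Every one of the 312 kept its sign when any 1 pool was left out, which follows from pools that do not overlap and adds no support. Such a fit leaves 1 pool in 1 genotype, so its p-values do not measure the spread of that genotype. Of 90 called genes that the naming rule took, 42 lost their call with DESeq2, 42 with thinned cells and 30 at a hashtag purity of 95%. Leaving out cells holding B cell or myeloid UMIs ended 57 calls, but it removed 4157 of the 5621 cells. Genes without an adjusted p are not in these counts. With DESeq2 these were Ccr4, Cx3cr1, Hspb1, Itgax, Lag3 and Ncr1. Without cells holding B cell or myeloid UMIs they were the same genes and H2-Aa, and with thinned cells Lag3. The losses given below for single genes are thus not complete.

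**Figure D1:**
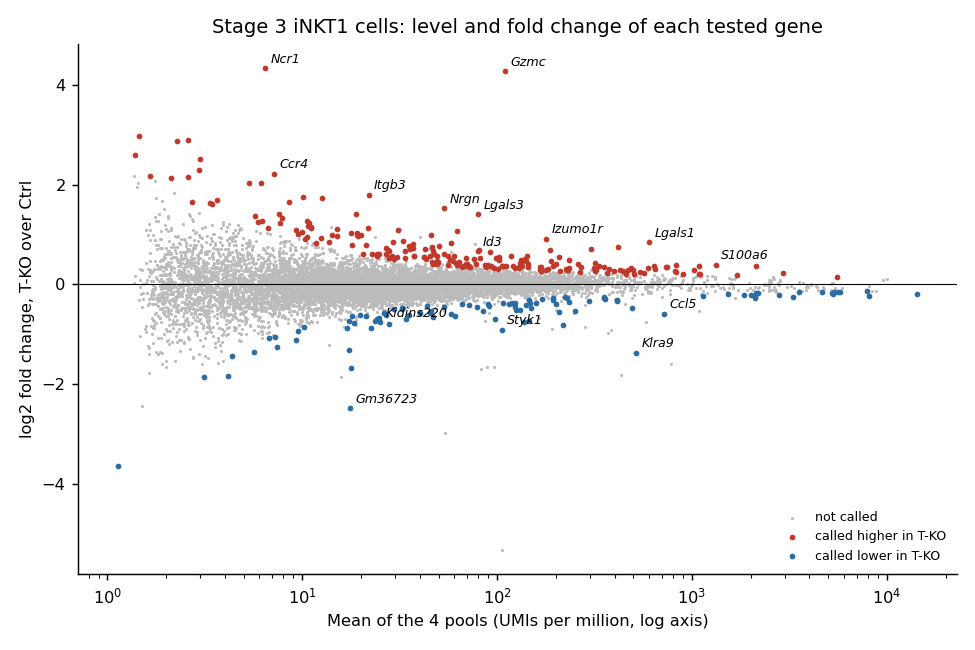
Each point is 1 of the 10702 tested genes, with its mean level over the 4 pools (CPM, log axis) on the x axis and its log2 fold change, T-KO over Ctrl, on the y axis. The 210 genes called higher in T-KO are red and the 102 called lower are blue. Klra9 lies lowest among the called genes with a mean of at least 20 CPM over the 4 pools, and Gzmc and Ncr1 lie highest among the genes named in the plot.

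Kidins220 itself, on chromosome 12 from 24974925 to 25063152 (GRCm38, plus strand), had 28.4 and 34.9 CPM in Ctrl and 17.2 and 20.1 CPM in T-KO. Every T-KO pool lay below the Ctrl pools, with a log2 fold change of -0.76 (SE 0.15, adjusted p = 0.00644). The transcript was thus reduced but present. Reads from the 5′ end can lie upstream of the deleted part, whose position was not used here, so the level checks the labels only in part. The call was lost with DESeq2 (adjusted p = 0.187), without Ctrl replicate 2 (0.0918) and with thinned cells (0.181).

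The gate genes are given as a description only, since they chose the cells. Klrb1c, which encodes NK1.1, had 385 and 437 CPM in Ctrl and 339 and 454 CPM in T-KO. Nkg7, a cytotoxic granule protein, had 1542 and 1609.8 CPM in Ctrl and 1497 and 1550.0 CPM in T-KO, and Il2rb had 878 and 869 CPM in Ctrl and 842 and 974 CPM in T-KO. Tbx21, which was not part of the gate, had 217 and 209.9 CPM in Ctrl and 171 and 175 CPM in T-KO. Its log2 fold change was -0.32 (SE 0.07, adjusted p = 0.0126). The call of Tbx21 was lost with DESeq2 (adjusted p = 0.206), with thinned cells (0.230) and without Ctrl replicate 1 (0.138) or Ctrl replicate 2 (0.0547).

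Of 21 NK cell receptors tested, 2 were lower in T-KO and 1 higher, beside 0.953% and 1.96% of all genes tested. The median log2 fold change of the 21 was -0.03, against -0.00 over all genes tested. Klra9, an inhibitory Ly49 receptor for MHC class I, had the largest fall among called genes with a mean of at least 20 CPM over the 4 pools. It had 719.7 and 768 CPM in Ctrl and 284 and 299 CPM in T-KO, a log2 fold change of -1.37 (SE 0.06, adjusted p = 2.16e-12). With each cell thinned to 1500 UMIs, 59.4% and 58.4% of Ctrl cells held a Klra9 UMI, against 25.7% and 25.5% of T-KO cells. Of the 701 B cells of the same library, chosen with under 2 gate UMIs, 2.43% held such a UMI at this depth. The part of free RNA and of doublets in this share was not tested. Klra6, of the same family, had 30.4 and 39.8 CPM in Ctrl and 19.0 and 21.5 CPM in T-KO (log2 -0.79, adjusted p = 0.00472). Its call was lost without Ctrl replicate 2 (0.0865), with DESeq2 (0.117), with thinned cells (0.239), at a hashtag purity of 95% (0.195) and without cells holding B cell or myeloid UMIs (0.136).

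Both genes lie in the natural killer gene complex on chromosome 6 (GRCm38, minus strand), Klra9 from 130178675 to 130193112 and Klra6 from 130013033 to 130026954. Their near-identical neighbours can share reads, which makes the split among Klra genes uncertain. Other members had smaller or unequal differences. Klra7 had 204 and 199.5 CPM in Ctrl and 98.9 and 150.2 CPM in T-KO (log2 -0.68, adjusted p = 0.258). Klra3 had 149.9 and 194 CPM in Ctrl and 180.1 and 193 CPM in T-KO (log2 0.10, adjusted p = 0.715). Styk1, which encodes a kinase-like membrane protein and lies on the same chromosome from 131299142 to 131353597, fell from 130.3 and 142 CPM to 80.7 and 68.4 CPM (log2 -0.91, SE 0.09, adjusted p = 3.93e-06). The adaptor Hcst, also called DAP10, fell from 552 and 583 CPM to 387 and 443 CPM (log2 -0.46, adjusted p = 0.000132).

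Of 14 effector genes tested, 4 were lower in T-KO and 2 higher, beside 0.953% and 1.96% of all genes tested. The median of the 14 was -0.06. The chemokine Ccl5 fell from 895 and 830.0 CPM in Ctrl to 575 and 586 CPM in T-KO (log2 -0.59, SE 0.06, adjusted p = 1.10e-06). At a hashtag purity of 95% its log2 fold change was -0.28 (adjusted p = 0.047), the smallest fall among the alternatives. The largest was -0.72, without cells holding B cell or myeloid UMIs. Ifng, the signature cytokine of iNKT1 cells, fell from 173 and 189.6 CPM to 95.7 and 123 CPM (log2 -0.73, SE 0.09, adjusted p = 0.000116). The pore-forming protein Prf1 and the death ligand Fasl fell by 0.46 and 0.37 on the log2 scale, and neither call was made by DESeq2 (adjusted p = 0.387 and 0.233). Leaving out Ctrl replicate 1 ended the call of Prf1 (0.0738), and leaving out Ctrl replicate 2 that of Fasl (0.0536).

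Gzmb, which encodes the protease granzyme B, moved the other way, from 279.8 and 336 CPM in Ctrl to 509 and 545 CPM in T-KO (log2 0.76, SE 0.07, adjusted p = 9.96e-06). Serpinb9, an inhibitor of granzyme B, had 60.3 and 52.8 CPM in Ctrl and 74.8 and 87.5 CPM in T-KO (log2 0.53, adjusted p = 0.00480), a call lost without T-KO replicate 2 (0.0794) and with DESeq2 (0.111). Ctrl and T-KO pools did not overlap for any of these genes. Gzma had 120.3 and 127 CPM in Ctrl and 108 and 150.4 CPM in T-KO, and its groups overlapped. Xcl1, a chemokine for dendritic cells, had 288 and 296 CPM in Ctrl and 282 and 286 CPM in T-KO (log2 -0.05, adjusted p = 0.763). In cells with under 2 Gzmc UMIs, a split described below, Xcl1 had 288 and 295 CPM in Ctrl and 248 and 245 CPM in T-KO.

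**Figure D2:**
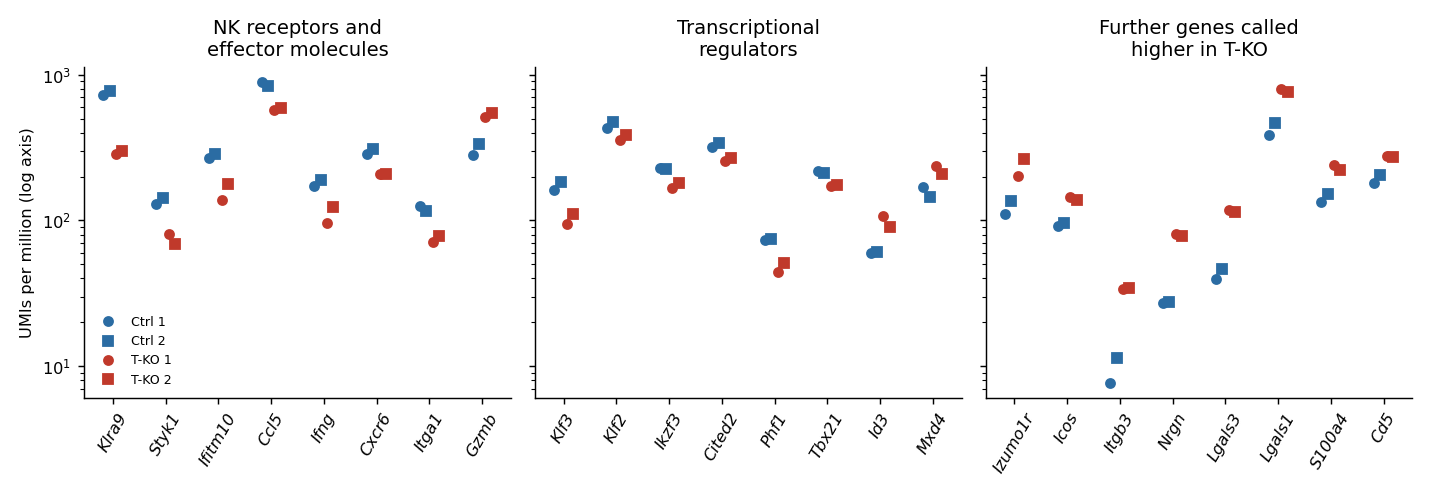
Levels of 24 genes in CPM (log axis) for each pool, with circles for replicate 1 and squares for replicate 2, Ctrl in blue and T-KO in red. For each of these genes, all called, the T-KO pools lie on 1 side of the Ctrl pools, as they do for every called gene.

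Other genes among the 15 with the largest fall were Ifitm10, Izumo4, Vegfb, Otud1, Ttc39c, Nol10 and Gramd3. Ifitm10, of the interferon-induced transmembrane family, fell from 269 and 286 CPM to 139 and 178 CPM (log2 -0.81, SE 0.09, adjusted p = 5.42e-05). The others had 26.7 to 57.5 CPM in the Ctrl pools and fell by 0.65 to 0.87 on the log2 scale, and none of these 6 was called by DESeq2 (adjusted p = 0.0570 to 0.331). The call of Vegfb, a growth factor, was lost without Ctrl replicate 1 (0.0835) or T-KO replicate 2 (0.202), and that of Ttc39c without Ctrl replicate 2 (0.0577).

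Genes of cell adhesion and homing changed in both directions. Of 10 chemokine receptors tested, 3 were higher in T-KO and 1 lower, beside 1.96% and 0.953% of all genes tested. Cxcr6, a receptor that marks iNKT1 cells and retains them in tissue, fell from 286 and 307 CPM to 207.3 and 207.2 CPM (log2 -0.53, SE 0.07, adjusted p = 5.42e-05). The raised receptors were rare transcripts. Ccr4 had 2.00 and 2.78 CPM in Ctrl and 13.6 and 10.4 CPM in T-KO, Ccr10 had 7.02 and 4.46 CPM against 20.9 and 18.2 CPM, and Cx3cr1 had 2.67 and 1.67 CPM against 6.80 and 10.1 CPM (log2 2.22, 1.74 and 2.04). Cx3cr1 was no longer called without T-KO replicate 2 (adjusted p = 0.0839). The collagen and laminin receptor chains Itga1 and Itgb1 fell by 0.69 and 0.56 on the log2 scale (adjusted p = 6.89e-05 and 5.42e-05). Itgb3, which encodes integrin β3, rose from 7.69 and 11.4 CPM to 34.0 and 34.4 CPM (log2 1.80, SE 0.18, adjusted p = 2.36e-06). Itgb7 and Itgae, the chains of the integrin that binds E-cadherin, rose by 0.42 and 0.49 on the log2 scale (adjusted p = 0.000485 and 0.00118).

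The study names 11 transcription regulators for this comparison, chosen on these same cells, so their direction here is not independent evidence. The Krüppel-like factor Klf3 fell from 160.9 and 184 CPM in Ctrl to 94.8 and 109.9 CPM in T-KO (log2 -0.76, SE 0.09, adjusted p = 1.87e-05). Ikzf3, which encodes Aiolos of the Ikaros family, fell from 228 and 224 CPM to 166 and 181 CPM (log2 -0.39, SE 0.07, adjusted p = 0.00245). With thinned cells, Ikzf3 had a log2 fold change of -0.36 and an adjusted p of 0.0521. Phf1, a Polycomb-associated protein, fell from 73.8 and 74.1 CPM to 44.4 and 50.9 CPM (log2 -0.63, adjusted p = 0.000665). Klf2, which drives thymic egress genes, and Cited2, a transcriptional co-regulator, fell by 0.31 and 0.34 on the log2 scale (adjusted p = 0.00790 and 0.00472). Neither was called without Ctrl replicate 2 (adjusted p = 0.237 and 0.126) or by DESeq2 (0.0933 and 0.0593).

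Id3, an inhibitor of E proteins, rose from 60.1 and 60.3 CPM to 107 and 89.6 CPM (log2 0.67, SE 0.10, adjusted p = 0.000341). Mxd4, an antagonist of MYC, rose from 169.9 and 145 CPM to 235 and 208 CPM (log2 0.47, SE 0.09, adjusted p = 0.00267), a call lost without Ctrl replicate 2 (0.0577). Of the families of these factors, the other 3 Ikaros members tested and the other 9 MYC and MXD members tested were not called. Among 15 other lineage factors tested beside Tbx21, Lef1 was lower (log2 -0.36, adjusted p = 0.0204) and Hivep3 higher (log2 0.55, adjusted p = 0.0129), and Zbtb16, which encodes PLZF, had 65.0 and 73.5 CPM in Ctrl and 72.6 and 72.0 CPM in T-KO. The calls of Lef1 and Hivep3 were lost without Ctrl replicate 2 (0.130) and without T-KO replicate 1 (0.0563), and neither was called by DESeq2 (0.317 and 0.227).

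The AP-1 genes are induced within minutes of stimulation or of tissue handling. In the main edgeR fit, which gave the 312 calls and has no replicate block, 0 of 13 tested members were called. Junb had 1238 and 1307 CPM in Ctrl and 781 and 992 CPM in T-KO (log2 -0.53, SE 0.12, adjusted p = 0.127). Junb was called with thinned cells (adjusted p = 0.00973) and at a hashtag purity of 95% (0.0196). It was also called with no filter on low counts (6.79e-12) and without cells holding B cell or myeloid UMIs (0.00101). Under the other alternatives with all 4 pools and no replicate block it was not (0.0613 to 0.232). With 1 pool left out, its log2 fold change ran from -0.72 to -0.38. Jun had 424 and 575 CPM in Ctrl and 212 and 319 CPM in T-KO, and Fos 271 and 456 CPM in Ctrl and 119 and 277 CPM in T-KO. In both genotypes the pool of replicate 2 was the higher one for Jun, Junb, Fos, Klf6 and Dusp1, and for Fos the groups overlapped. With Ctrl replicate 1 or 2 left out, the log2 fold change was -1.11 and -0.67 for Jun, and -0.67 and -0.09 for Klf6. Klf6 and the ERK phosphatase Dusp1 had log2 fold changes of -0.41 and -0.76 (adjusted p = 0.722 and 0.562). The heat shock genes Hspa1a and Hspa1b, which respond to handling, varied in the same direction, with 603 and 745 CPM against 142 and 235 CPM for Hspa1a (log2 -1.82, adjusted p = 0.257). The small heat shock gene Hspb1 was the 1 member of 12 called by edgeR, with 4.85 and 8.21 CPM against 1.36 and 2.11 CPM (log2 -1.84, adjusted p = 0.0144, and 0.246 without Ctrl replicate 2). DESeq2 called 3 members, Hspa1b, Hspa1a and Dnajb1 (adjusted p = 0.000162, 0.000353 and 0.00123). The part of handling in the AP-1 values was not tested.

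Of 19 tested genes that TCR signals induce, 3 were higher in T-KO and 0 lower, beside 1.96% and 0.953% of all genes tested. The median of the 19 was 0.12. Cd5, a surface protein whose level follows TCR signal strength, rose from 180.8 and 206 CPM to 275 and 274 CPM (log2 0.49, SE 0.07, adjusted p = 0.000305). Tnfrsf9, which encodes 4-1BB, rose from 10.5 and 12.8 CPM to 22.2 and 25.6 CPM (log2 1.03, adjusted p = 0.00169). Lag3 stood at 0.835 and 0.975 CPM in Ctrl and 4.54 and 4.01 CPM in T-KO (log2 2.15, adjusted p = 0.0129), a call lost without Ctrl replicate 1 (0.0906), Ctrl replicate 2 (0.0740) or T-KO replicate 2 (0.0794). Nr4a1, which encodes Nur77, had 9.36 and 15.9 CPM in Ctrl and 9.52 and 25.6 CPM in T-KO, with overlapping groups (log2 0.61, SE 0.54, adjusted p = 0.717). The NF-κB and ERK feedback lists, of 14 and 11 tested genes, held 0 calls in the main edgeR fit, as did the 16 tested partners of Kidins220. Of 33 genes of the TCR complex and its proximal signalling, Cd3d, Trbc1 and Trbc2 rose, by 0.20, 0.37 and 0.29 on the log2 scale, none of them called by DESeq2 (adjusted p = 0.331, 0.326 and 0.0680) or without Ctrl replicate 2 (0.173, 0.124 and 0.0577).

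Of 9 genes listed as high in early, iNKT1a-like cells, 5 were higher (beside 1.96% of all genes tested), 0 lower, and the median was 0.57. The list came from the study and earlier results of these data, so these counts are not independent evidence. The folate receptor family member Izumo1r rose from 110.4 and 136 CPM in Ctrl to 203 and 263 CPM in T-KO (log2 0.91, SE 0.14, adjusted p = 0.0270). The costimulatory receptor Icos rose from 91.7 and 95.4 CPM to 144 and 137 CPM (log2 0.57, SE 0.08, adjusted p = 0.000234), and the creatine kinase Ckb from 26.4 and 34.0 CPM to 58.1 and 63.8 CPM (log2 1.00, SE 0.12, adjusted p = 3.46e-05). Itgb3 and Ccr4, given above, are the other called members. Il4 had 30.2 and 33.3 CPM in Ctrl and 22.2 and 32.5 CPM in T-KO and was not called, like Ephx1, Ramp1 and Zbtb16. At a hashtag purity of 95%, Izumo1r, Icos and Ckb kept their direction but not their calls (adjusted p = 0.350, 0.0655 and 0.0802). Izumo1r also lost its call with filters of 500 genes and 10% mitochondrial UMIs (0.0623), with no marker gate (0.0640) and without cells holding B cell or myeloid UMIs (0.179).

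Genes for galectins, S100 proteins and Ly6 proteins were mostly raised, with 8 of 12 higher and 1 lower (median 0.26). Over all genes tested, 1.96% were higher and 0.953% lower. Lgals3 rose from 39.8 and 46.5 CPM to 118 and 115 CPM (log2 1.41, SE 0.10, adjusted p = 8.97e-09), and Lgals1 from 388 and 467 CPM to 803 and 759 CPM (log2 0.85, SE 0.07, adjusted p = 1.21e-05). The calcium-binding S100a4 rose from 133 and 150.6 CPM to 241 and 222 CPM (log2 0.68, adjusted p = 1.53e-05). S100a6 and S100a10 rose by 0.40 and 0.36 on the log2 scale (adjusted p = 0.00233 and 0.000161). Ly6c2, a surface protein of mature iNKT cells, fell by 0.18 (adjusted p = 0.0458), a call lost without Ctrl replicate 1 (0.463), Ctrl replicate 2 (0.0933) or T-KO replicate 1 (0.169). S100a11, S100a13 and Ly6e, raised by 0.22, 0.29 and 0.23, were not called by DESeq2 (0.234, 0.367 and 0.233) or without Ctrl replicate 1 (0.351, 0.246 and 0.213). Nrgn, which encodes the calmodulin-binding protein neurogranin, had 27.1 and 27.4 CPM in Ctrl and 81.2 and 78.8 CPM in T-KO (log2 1.53, SE 0.11, adjusted p = 7.93e-09). Other genes among the 15 with the largest rise were Aff3, Ptms, Ddit4, Tnfrsf25 and Jaml, with log2 fold changes of 1.13, 1.08, 1.07, 0.85 and 0.82. Of these, Ddit4 is a stress-induced inhibitor of mTORC1, Tnfrsf25 the death receptor DR3 and Jaml a junctional adhesion molecule.

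Genes of the cell cycle lay above 0 throughout, although few passed the test. All 20 S phase genes and all 18 G2/M genes tested had a positive log2 fold change, beside 5271 of all 10702 genes tested. The medians were 0.25 and 0.46, and 1 and 4 of them were called. Rrm2, a subunit of ribonucleotide reductase, had 36.9 and 28.8 CPM in Ctrl and 45.8 and 59.2 CPM in T-KO (log2 0.71, adjusted p = 0.00492). The start of Rrm2 lies at -0.267 Mb relative to that of Kidins220, so it is also among the genes near the deleted locus given below. Birc5, Ube2c, Cenpf and Tpx2, all of mitosis, rose by 0.57, 0.42, 0.80 and 0.61 on the log2 scale. With thinned cells, the log2 fold changes were smaller, at 0.36 for Rrm2, 0.10 for Birc5, 0.23 for Ube2c, 0.60 for Cenpf and 0.45 for Tpx2. None of these 5 was called by DESeq2 (adjusted p = 0.0940 to 0.571), with thinned cells or without T-KO replicate 2 (0.117 to 0.230). Mki67 had 65.2 and 49.0 CPM in Ctrl and 76.2 and 119 CPM in T-KO (adjusted p = 0.383).

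Of 29 interferon-induced genes tested, 26 had a positive log2 fold change (median 0.30), beside 5271 of all 10702 genes tested. Of the 29, 6 were called, all higher, beside 1.96% of all genes tested. These were Isg20, Zbp1, Ifi27l2a, Slfn1, Slfn2 and Tmem173, which encodes STING, with log2 fold changes of 0.30 to 0.52. Slfn2 and Tmem173 are named by the study for these cells, as is Gpr171, an orphan receptor that rose from 27.1 and 26.0 CPM to 47.6 and 42.3 CPM (log2 0.72, adjusted p = 0.00116). Ifit3 varied within a genotype, with 43.8 and 23.7 CPM in Ctrl and 54.4 and 55.8 CPM in T-KO (adjusted p = 0.570). Without Ctrl replicate 2, the calls of Isg20, Zbp1, Ifi27l2a, Slfn1 and Slfn2 were lost (adjusted p = 0.0671 to 0.394), and without Ctrl replicate 1 that of Tmem173 (0.0739). Without T-KO replicate 2, those of Isg20, Zbp1 and Tmem173 were lost (0.252, 0.118 and 0.0712). Of the 6, Slfn2 alone was called by DESeq2 (0.0350).

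Of 15 BCL-2 family genes tested, the anti-apoptotic Bcl2a1b and Bcl2a1d and the pro-apoptotic Bax were higher, by 0.36, 0.52 and 0.27 on the log2 scale, and the median was 0.05. Bcl2a1d had 83.2 and 78.9 CPM in Ctrl and 113 and 121 CPM in T-KO (adjusted p = 0.00113), and the Bcl2a1 copies can share reads. Bcl2, Mcl1 and Bcl2l11 (BIM) had log2 fold changes of -0.08, 0.02 and -0.05. The calls of Bcl2a1b and Bax were lost without Ctrl replicate 2 (adjusted p = 0.100 and 0.334) and with DESeq2 (0.0680 and 0.388).

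Of 13 glycolysis genes, Gapdh, Ldha, Pkm and Gpi1 were higher and 0 lower, beside 1.96% and 0.953% of all genes tested. The median of the 13 was 0.17. Pkm and Gpi1 were no longer called without Ctrl replicate 1 (adjusted p = 0.0856 and 0.197). Gapdh had 1835 and 1874 CPM in Ctrl and 2426 and 2416 CPM in T-KO (log2 0.37, SE 0.04, adjusted p = 1.87e-05). Ribosomal protein genes, a list added after the data were seen, lay lower, with a median of -0.10. Of 78 tested, 15 were called lower and 1 higher, beside 0.953% and 1.96% of all genes tested. The summed level of the list was 235810 and 230594 CPM in Ctrl and 225021 and 218844 CPM in T-KO. The 27 genes of ribosome biogenesis held 0 calls in edgeR (median -0.02), and of 13 mitochondrially encoded genes only mt-Nd5 was called (log2 -0.25, adjusted p = 0.0376, and 0.238 without Ctrl replicate 1). Of 8 GIMAP genes, small GTPases of lymphocyte survival, Gimap8 was lower (log2 -0.37, adjusted p = 0.0221), a call lost without Ctrl replicate 2 (0.225).

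**Figure D3:**
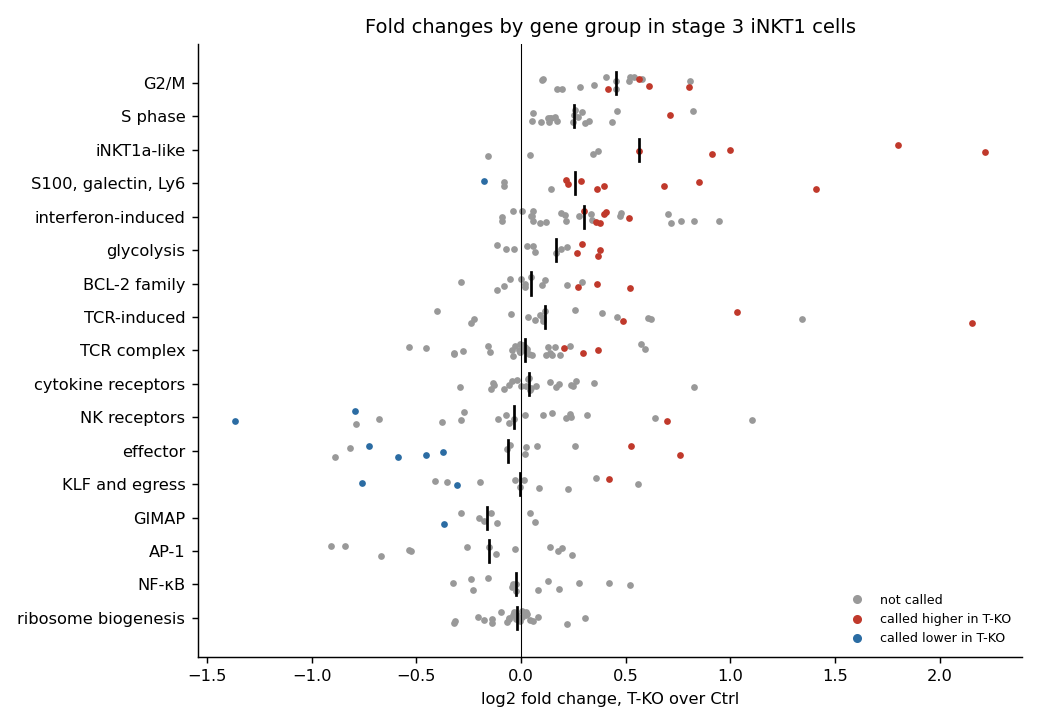
Log2 fold change, T-KO over Ctrl, of each tested gene (points) in 17 gene groups, with the median of a group as a black line and called genes in red (higher) or blue (lower). All S phase and G2/M genes lie above 0, while NK receptor and effector genes spread to both sides.

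Gzmc, which encodes granzyme C, had the largest fold among called genes with a mean of at least 20 CPM, with 7.35 and 13.5 CPM in Ctrl and 220.4 and 198 CPM in T-KO (log2 4.27, SE 0.21, adjusted p = 0.000116). It lies on chromosome 14 from 56231441 to 56234656 (GRCm38, minus strand), near Gzmb at 56258838 to 56262260. The rise came from few cells. Cells with at least 2 Gzmc UMIs numbered 2 and 7 in Ctrl (0.116% and 0.331% of the pool) and 14 and 27 in T-KO (2.54% and 2.20%), and they held 94.0% and 93.2% of the Gzmc UMIs of the T-KO pools. A single T-KO cell held up to 382 Gzmc UMIs. In the T-KO cells of this kind, Ncr1, the NK receptor NKp46, had 213 and 97.2 CPM, against 3.74 and 11.98 CPM in the other T-KO cells. The adaptor Tyrobp had 1463 and 916 CPM against 56.5 and 75.1 CPM, and Cd3e 564 and 937 CPM against 1337 and 1430.3 CPM. The 2 and 7 Ctrl cells held no Ncr1 UMI and had 149.7 and 0 CPM of Tyrobp. With cells holding a B cell or myeloid UMI left out, the log2 fold change of Gzmc was 2.32 (adjusted p = 0.674).

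Without these cells, an alternative added after the data were seen, Gzmc had 6.02 and 8.24 CPM in Ctrl and 13.6 and 13.9 CPM in T-KO (log2 0.92, adjusted p = 0.0285). Tyrobp, which had 62.3 and 59.3 CPM in Ctrl and 98.4 and 100.8 CPM in T-KO over all cells (log2 0.70, adjusted p = 8.96e-05), then had a log2 fold change of 0.14 (adjusted p = 0.614). Lag3 had 1.42 (adjusted p = 0.209). Ncr1, with 0.334 and 0.835 CPM in Ctrl and 9.98 and 14.6 CPM in T-KO over all cells (2 and 6 UMIs against 22 and 69), stayed called (log2 3.82, adjusted p = 0.000646). Without these cells, the log2 fold changes of Klra9, Lgals3, Nrgn and Gzmb were -1.36, 1.33, 1.35 and 0.76.

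Markers of other cell types changed in several lists. Of the markers tested, 2 of 6 were called for NK cells, 2 of 6 for γδ T cells, 3 of 11 for myeloid cells and 3 of 9 for stage 0 cells, where 2.92% of all genes were called. The stage 0 markers summed to 360.4 and 361 CPM in Ctrl and 374 CPM in each T-KO pool, with Itm2a (log2 0.34, adjusted p = 0.0195, and 0.123 without Ctrl replicate 2) and Tnfrsf9 higher and Lef1 lower. The 7 NK cell markers summed to 497 and 522 CPM in Ctrl and 464 and 562 CPM in T-KO. Of these, Ncr1, given above, was called higher (log2 4.34 over all cells, adjusted p = 1.10e-06) and Prf1 lower (log2 -0.46, adjusted p = 0.0143). Klre1, Klrc2, Irf8 and Gzma were not called, with log2 fold changes of -0.27, 0.23, 0.01 and 0.08. Eomes, which was not tested, had 1 UMI in each Ctrl pool and 3 and 16 in T-KO. The γδ T cell markers summed to 108.6 and 119 CPM in Ctrl and 163 and 144 CPM in T-KO, where Tcrg-C1 and Tcrg-C4, which can share reads, were called higher (Tcrg-C1 not without T-KO replicate 1, adjusted p = 0.106) and Trdc, which defines these cells, did not exceed 12.04 CPM in any pool. B cell, myeloid and DP thymocyte markers summed to 300 to 471, 1250 to 1447 and 140 to 163 CPM over the 4 pools. In the B cell list 0 of 7 tested genes were called in edgeR, and in the myeloid list H2-Aa was lower (adjusted p = 0.387 without Ctrl replicate 1) and Itgax (log2 2.30, 7 and 5 UMIs against 13 and 19, adjusted p = 0.00852, and 0.0924 without Ctrl replicate 2) and Tyrobp higher. Markers of iNKT17 and iNKT2 cells summed to 26.8 to 44.2 and 221 to 236 CPM, with 0 calls in edgeR. In the iNKT2 list, Il13 had at most 7 UMIs in a pool. The part of such cells in the results was not tested, except that leaving out the Gzmc cells changed the genes named above. In summed counts, fewer cells that express a gene and less RNA of it per cell cannot be told apart.

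Composition was described by the cells with a UMI of Ccl5, a mark of late iNKT1 cells, or of Izumo1r, with each cell thinned to 1500 UMIs so that depth was equal and 152 shallower cells left out. A Ccl5 UMI was found in 32.9% and 31.0% of Ctrl cells and in 27.0% and 24.5% of T-KO cells, a difference of -6.19 percentage points. An Izumo1r UMI was found in 13.9% and 16.1% of Ctrl cells and in 19.5% and 24.5% of T-KO cells, a difference of 6.97 points. In both cases the groups did not overlap, and the two-sided exact permutation test over the 4 pools gave p = 0.333, the smallest value that 2 pools against 2 allow. At a hashtag purity of 95% and not thinned, the share of cells with a Ccl5 UMI, T-KO minus Ctrl, was -2.66 points, against -6.14 points without thinning at the purity of 80%. Without thinning the shares were 41.9% and 39.4% against 35.3% and 33.7% for Ccl5, and 24.6% and 27.4% against 33.3% and 40.7% for Izumo1r. Among the 701 B cells, 1.71% and 0.856% held such a UMI after thinning, with a median depth of 5741 UMIs before it.

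**Figure D4:**
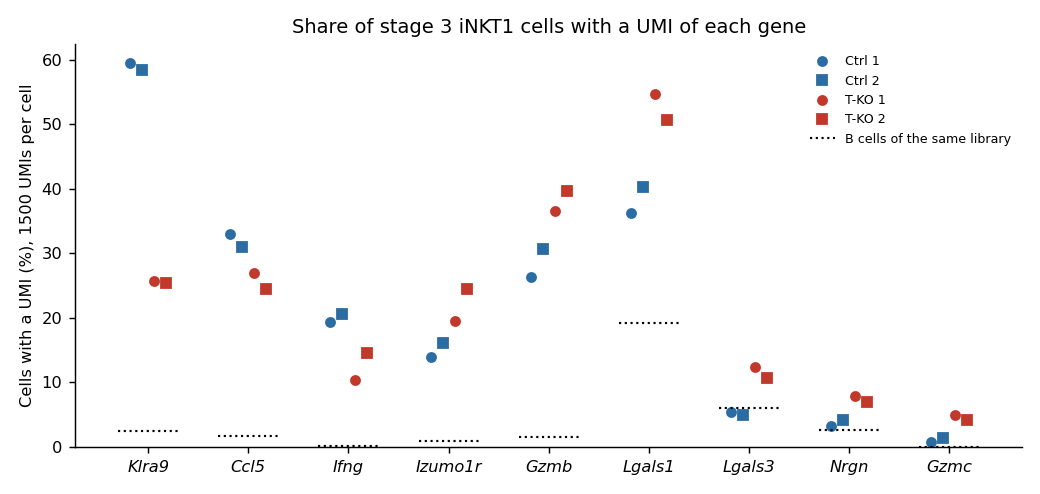
Share of stage 3 iNKT1 cells with at least 1 UMI of a gene, each cell thinned to 1500 UMIs, for each pool (Ctrl in blue, T-KO in red, circles for replicate 1 and squares for replicate 2). The dotted line is the share among B cells of the same library, which reaches 5.99% for Lgals3, at the level of the Ctrl pools (5.39% and 5.00%).

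Cells without and with a Ccl5 UMI were also fitted apart, as a description. Ccl5 is itself lower in T-KO and the cells were not thinned, so these classes are set in part by the difference under study and by depth, and do not mark cells of a like state. Among cells without a Ccl5 UMI, 209 of 10092 genes were called (2.07%), and among cells with one 124 of 9578 (1.29%). Of the 312 genes, 182 were called in the first fit and 97 in the second. Klra9 had a log2 fold change of -1.52 in cells without and -1.09 in cells with a Ccl5 UMI (adjusted p = 5.20e-11 and 3.94e-11). The log2 fold changes in the same order were 1.32 and 1.55 for Lgals3, 1.43 and 1.66 for Nrgn, -0.65 and -0.85 for Klf3, -0.68 and -0.71 for Ifng, 0.42 and 0.55 for Cd5, and 0.89 and 0.62 for Gzmb, all called in both. Ikzf3 had -0.43 and -0.31, with adjusted p = 0.00544 and 0.139, and Id3 had 0.66 and 0.60 (0.00105 and 0.0530). The difference between the fits was not tested.

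Helios+ cells of the stage 0 sort (at least 1 Ikzf2 UMI and under 2 gate UMIs) gave 203 and 448 Ctrl cells and 280 and 235 T-KO cells. The T-KO difference at stage 3 minus that in these cells was tested in 11293 genes, and 8 were called (0.0708%), all with a positive interaction. All 8 were also among the genes called at stage 3. Lgals1 had 459 and 428 CPM in stage 0 Ctrl cells and 425 and 386 CPM in stage 0 T-KO cells, beside the rise at stage 3 (interaction log2 0.97, adjusted p = 0.0154). Nrgn was higher at stage 0, with 273 and 327 CPM in Ctrl and 174 and 267 CPM in T-KO (interaction log2 1.99, adjusted p = 0.0446). The others were Aff3 and E2f2, both transcription regulators, the phospholipase Plaat3, the actin-capping protein Capg, the granule proteoglycan Srgn and the checkpoint ligand Pdcd1lg2. At stage 3, these other 6 rose by 0.27 to 1.76 on the log2 scale. For all of them but E2f2, both T-KO pools lay below both Ctrl pools at stage 0, as for Plaat3 with 32.6 and 34.3 CPM in Ctrl and 20.5 and 17.9 CPM in T-KO. The interaction of Plaat3 was 1.08 and its rise at stage 3 was 0.28. Capg had 42.9 and 30.8 CPM against 17.1 and 23.1 CPM at stage 0, with an interaction of 1.18 and a rise of 0.34.

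At stage 0, the genotypes overlapped for Ikzf3, Klf3 and Id3. Ikzf3 had 130.4 and 137 CPM in Ctrl and 125 and 154 CPM in T-KO, Klf3 58.5 and 63.1 CPM against 63.2 and 51.7 CPM, and Id3 288 and 307 CPM against 325 and 284 CPM. Their interactions were not called (log2 -0.45, -0.68 and 0.64, adjusted p = 0.348, 0.242 and 0.222), so a difference between stages was not shown for them. Without T-KO replicate 1 the count of called interactions was 3, and without Ctrl replicate 2 it was 416, so this count turns on single pools.

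**Figure D5:**
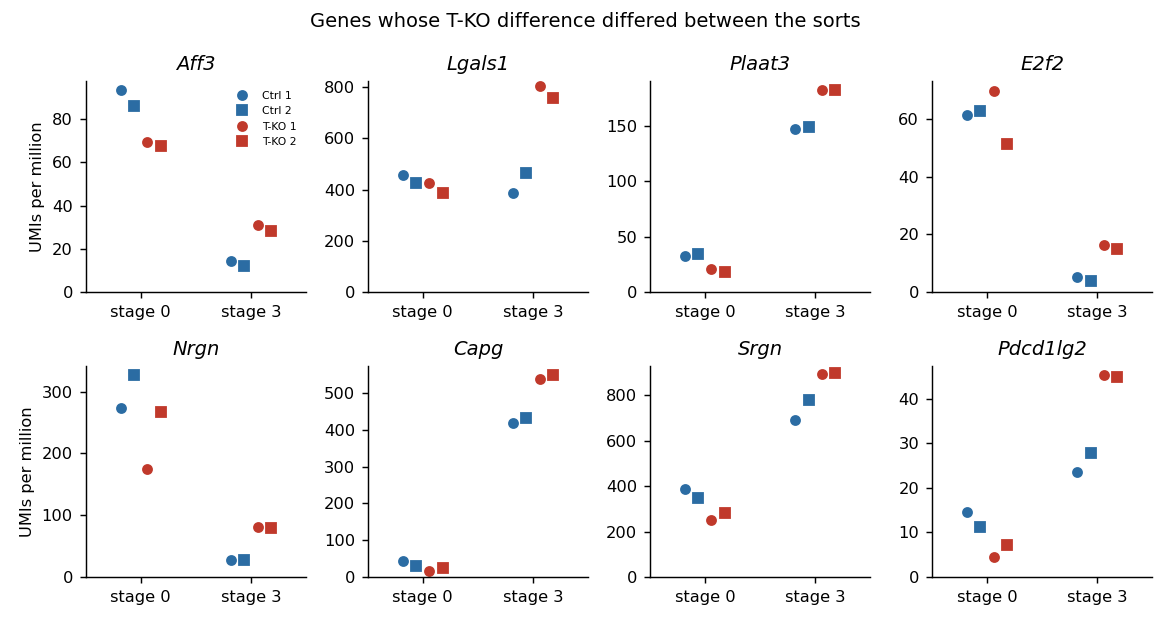
Levels (CPM) of the 8 genes with a called interaction, in Helios+ cells of the stage 0 sort and in stage 3 iNKT1 cells, for each pool (Ctrl in blue, T-KO in red, circles for replicate 1 and squares for replicate 2). In every panel both T-KO pools exceed both Ctrl pools among stage 3 cells, which is the case in no panel among stage 0 cells. The genes were chosen on these same values, so this pattern is no separate result.

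Genes near the deleted locus were counted last, in a window chosen after the data were seen. Of 46 other tested genes starting within 10 Mb of the start of Kidins220, 5 were called (10.9%, beside 2.92% of all genes tested), and on the whole of chromosome 12, 9 of 394 (2.28%). Gm36723, a predicted gene from 25303940 to 25471979, had 28.6 and 31.5 CPM in Ctrl and 4.08 and 6.13 CPM in T-KO (log2 -2.48, SE 0.21, adjusted p = 2.04e-07). Rrm2, Nol10, Pdia6 and Rps7 were the other called genes, with log2 fold changes of 0.71, -0.68, 0.35 and -0.18.

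Of the TCR and immunoglobulin variable segments, 138 were tested, and 4 were higher and 2 lower in T-KO. Trbv13-1 and Trbv13-2, segments of the Vβ8 family that iNKT cells often use, rose by 0.55 and 0.34 on the log2 scale (adjusted p = 0.000161 and 0.0137). Of the TRBV UMIs, the Trbv13 segments held 69.5% and 69.3% in Ctrl and 70.7% and 73.4% in T-KO, Trbv1 15.2% and 13.9% against 11.7% and 10.3%, and Trbv29 2.50% and 3.84% against 4.71% and 3.87%. Trav11 and its copies, the invariant α segment, held 27.6% and 28.3% of TRAV UMIs in Ctrl and 32.1% and 31.6% in T-KO.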

How the data were processed

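The reads were mapped by the authors to Cell Ranger's ready-made mm10 reference (Cell Ranger 6.0.0), and the deposited matrix holds raw UMI counts for each gene and hashtag in every barcode. The members, gene lists and tests here were chosen with earlier results of these data known.

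Counts of the selected cells were summed per hashtag row, without 734 genes of the X-inactivation locus and the Y chromosome. Free RNA was not removed. The sums were tested with edgeR 4.0.16 (TMM, filterByExpr, glmQLFit, glmQLFTest) and Benjamini-Hochberg adjustment, after the procedure was tested on simulated data. DESeq2 1.42.0 and HTODemux of Seurat 5.3.0 were among the alternatives. The SE of a log2 fold change is its size over the root of the F statistic. The study tested single cells, which are not replicates. The p-values measure the spread between separate pools of mice. With 1 pool left out, they rest on the spread of the other genotype alone.

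Genes named are Kidins220, those the study names, the gate genes and Tbx21, and called or defining members of the gene lists. The 15 largest called folds each way at 20 CPM or more are named too. Hcst, Itgb1 and Itgae were taken from the called genes outside this rule, and their values under the alternatives are not given. Genes with a called interaction, called genes near Kidins220 and variable segments are named in their own paragraphs. Positions are from GRCm38 with GENCODE M21. B cells had at least 3 UMIs of a set of B cell markers and under 2 gate UMIs. Some genes that the rule would name are not reported here. Intervals for shares are not given, since the pools carry the error.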

Additional observations from a re-analysis of the deposited data

Results flagged for a closer look

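The T-KO difference at stage 3 differed from that in Helios+ cells of the stage 0 sort for 8 genes, by an interaction test. The interaction was 1.51 on the log2 scale for Aff3, 0.97 for Lgals1, 1.08 for Plaat3, 1.79 for E2f2, 1.99 for Nrgn, 1.18 for Capg, 0.72 for Srgn and 1.90 for Pdcd1lg2. With the pool of mice as a block, all 8 remained called among 16. Without T-KO replicate 1, Nrgn was the 1 gene of the 8 still called (adjusted p = 0.0320), and the same held without T-KO replicate 2 (0.00233).

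The 12 hashtag rows outside 11 to 18 held 25599 UMIs, with 12255 on row 1 and 11854 on row 4. They took no part in the assignment.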

How the results depend on the processing

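Against 312 genes called between T-KO and Ctrl, DESeq2 called 86, no filter on low counts 501 and thinned cells 136. Leaving out every cell with a B cell or myeloid UMI removed 4157 of the 5621 cells and called 82. Leaving out 1 pool gave 233 to 421. Among 209 genes called in cells without a Ccl5 UMI, the same changes gave 43 (DESeq2), 340 (no filter) and 34 (B cell or myeloid UMIs), and 150 to 258 with 1 pool left out. For 124 in cells with one they gave 33, 199 and 11, with 32 when thinned and 87 to 158 with 1 pool left out. For the 8 interactions, DESeq2 called 15, no filter 179, RLE normalization or leaving out ribosomal and Gm genes 4 each, a gate of 4 UMIs 17, no gate 19, no B cell or myeloid UMIs 2, no Gzmc cells 3, the pool of mice as a block 16, and leaving out 1 pool 3 to 416. The causes were not tested.

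The replicate numbers name pools and nothing says that they pair them. The differences between replicates correlated between genotypes at 0.148 over 6278 genes, with 2 pairs. With the replicate block 842 genes were called, Jun, Junb, Fos, Klf6 and Dusp1 among them, and 441, 281 and 14 in the other 3 fits.

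The share of cells with a Ccl5 UMI, T-KO minus Ctrl, was -2.66 points at a hashtag purity of 95% and -8.75 without B cell or myeloid UMIs, both not thinned. The share of cells with an Izumo1r UMI, T-KO minus Ctrl, was 11.004 points without thinning and 7.35 at that purity. Of 1600 alternative values for 95 named genes, 1316 kept direction and side of the threshold, 266 kept direction and lost the call, 16 gained one and 2 turned, Isg20 without B cell or myeloid UMIs (-0.056) and H2-Aa without the gate (0.65).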
